A study of Mus musculus with 20 samples.

Results

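The genes described here carry the names of proteins of the cytosolic ribosome, and most encode such a protein. They were taken from the table by name: a row counted as a member where 1 of its symbols was Rpl or Rps followed by a number, Rplp0, Rplp1, Rplp2 or Rpsa, with names holding -ps left out. This gave 87 members among 46744 rows, 51 of the large (60S) subunit and 36 of the small (40S) subunit. Of these, 76 were the main genes of the ribosome and 11 were paralogs or extra copies, such as Rpl3l and Rps4l. Among the latter, the GENCODE annotation lists Rpl6l, Rps12l1, Rps3a2, Rps3a3 and Rps4l as processed pseudogenes. Rps3a3 and Rps4l were high enough to be compared. Fau, Rpl36al and Rack1, which also encode proteins of the ribosome, were not taken by this rule and are given separately.

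RNA of whole skin from C57BL/6 mice, an inbred laboratory strain, was sequenced in 20 samples of 6 groups. Control skin with intact Sod2 (Sod2+/+) comprised 5 samples at 50 days, 2 samples at 100 days, 3 samples at 300 days and 4 samples at 700 days. The conditional knockout (cKO, Sod2-/-), which lacks the superoxide dismutase of the mitochondrial matrix in targeted cells, comprised 3 samples at each of 100 and 300 days. The driver of the deletion and the targeted cells are not named in the labels, and the labels do not say whether each sample was 1 animal. The authors deposited 1 FPKM value (fragments per kilobase of transcript, scaled to the mapped fragments) per gene and group. No value therefore has a replicate spread, an error or a test, and the read depth behind it is unknown. Titles of the 50- and 700-day samples start with one prefix and those of the other 4 groups with another, and ratios were taken only within a prefix.

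The cytosolic ribosome translates messenger RNA into protein. Its 40S subunit decodes the message, and its 60S subunit joins amino acids and carries a stalk that recruits elongation factors. Ribosomal protein transcripts are among the most abundant in most cells. Many begin with a run of pyrimidines at the start site, the 5′ terminal oligopyrimidine (5′ TOP) motif, through which mTORC1 signalling controls their translation. Many of the genes also hold small nucleolar RNAs (snoRNAs) in their introns, which guide chemical modification of ribosomal RNA. In skin, keratinocytes of the basal layer and of the growing hair follicle have a high demand for new ribosomes.

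The start sites of 5 members show the pyrimidine run. The sequences are from RefSeq on GRCm38.p6, with 40 bases before and 20 bases from the start site on, and the capitals mark the unbroken run of C and T over the first transcribed base. Rps27 and Rps18 belong to the small subunit, Rps6 is the subunit's main phosphorylated protein, Rplp2 is a stalk protein and Rpl35a is a protein of the large subunit.
Rps27, chr3:90213629-90213688, minus strand: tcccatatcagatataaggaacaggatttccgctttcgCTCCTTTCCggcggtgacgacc
Rps18, chr17:33955646-33955705, minus strand: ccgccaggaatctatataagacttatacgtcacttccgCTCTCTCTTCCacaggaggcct
Rps6, chr4:86857348-86857407, minus strand: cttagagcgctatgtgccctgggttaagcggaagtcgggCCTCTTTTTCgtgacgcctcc
Rplp2, chr7:141447611-141447670, plus strand: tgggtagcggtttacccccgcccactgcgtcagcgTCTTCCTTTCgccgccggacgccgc
Rpl35a, chr16:33056442-33056501, plus strand: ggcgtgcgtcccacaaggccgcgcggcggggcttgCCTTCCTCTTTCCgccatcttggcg

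The runs are 9, 11, 10, 10 and 13 bases long in this order. The RefSeq promoter table held 62 of the 87 members. A C at the annotated first base followed by at least 4 bases of C or T was present in 13 of the 62 (20.97%), against 3.01% of all 27025 genes of that table. A gene counted where any of its promoter windows held the match. The run may start a few bases from the annotated base, as in Rplp2. The letters CTTTCC lay on the sense strand between 10 bases before and 50 bases after the start in 17 members (27.4%), against 3.04% of all genes of that table. The letters CCGGAAG, the core bound by ETS factors, lay on either strand of the 300-base window in 26 members (41.9%), against 9.93% of all genes of that table and 18.5% of those compared here. TATAAA in the 50 bases before the start was present in 1 member, Rpl22l1 (1.61%), against 3.15% of all genes of that table. These are matches of letters and not measured sites.

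Intronic snoRNAs matter for reading the table, since 19 of the 87 rows name a small RNA beside the member and give 1 FPKM for both. The members that differed most between groups include several of these rows: Rpl5 shares its row with Snord21, Rpl27a with Snora3 and another snoRNA, Gm24888, and Rps3 with Snord15b. The sequences are from GRCm38 with GENCODE coordinates. Capitals mark the C box and D box of Snord21 and Snord15b and the ACA box of Snora3 and Gm24888, the short motifs that define these classes.
Snord21, chr5:107904555-107904648, plus strand: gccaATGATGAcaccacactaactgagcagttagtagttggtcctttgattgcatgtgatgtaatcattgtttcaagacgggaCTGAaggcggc
Snora3, chr7:109520120-109520251, plus strand: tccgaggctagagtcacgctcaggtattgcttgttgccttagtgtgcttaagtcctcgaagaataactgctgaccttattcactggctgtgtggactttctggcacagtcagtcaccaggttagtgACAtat
Gm24888, chr7:109521280-109521409, plus strand: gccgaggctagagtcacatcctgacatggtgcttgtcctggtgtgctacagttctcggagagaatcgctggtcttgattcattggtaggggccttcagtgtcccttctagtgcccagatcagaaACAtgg
Snord15b, chr7:99479563-99479707, minus strand: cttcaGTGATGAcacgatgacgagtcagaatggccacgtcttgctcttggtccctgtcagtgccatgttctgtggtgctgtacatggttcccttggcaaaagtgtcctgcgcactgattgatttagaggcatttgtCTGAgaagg

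Each of the 4 lies on its host's strand, and none overlaps an exon of a coding transcript of its host. Non-coding transcripts of the host have exons over Snora3 (2 transcripts), Snord21 (1 transcript) and Snord15b (1 transcript), and 0 over Gm24888. The snoRNA and its host's messenger RNA cannot be separated in these rows and the authors' assignment of their reads was not given in the sources used here. Results are therefore given with and without the 19 rows.

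The groups differed in cell makeup, so the markers come before the comparisons. Skin markers were present throughout: 8 basal keratinocyte genes summed to between 1654 and 6315 FPKM and 7 fibroblast genes to between 819 and 4116 FPKM. Skeletal muscle genes (7 of 8 listed markers found in the table) summed to 77.2 FPKM in the 700-day controls and to between 3061 and 16560 FPKM elsewhere, and 7 adipocyte genes to between 197 FPKM in the 700-day controls and 6254 FPKM in the 100-day controls. The row of Xist, the RNA of the inactive X chromosome, was at 2580 FPKM in the 50-day, 1141 FPKM in the 100-day and 2187 FPKM in the 300-day controls, and at 3.69 FPKM in the 700-day controls, 4.92 FPKM in the 100-day cKO and 17.2 FPKM in the 300-day cKO. The Y-linked Ddx3y was at most 0.243 FPKM where Xist was high and at least 21.4 FPKM where it was low. Sex-linked expression thus differed between old and young controls and between genotypes, and its part cannot be told apart from age or genotype. Sod2 stood at 27.7 FPKM in control and 17.6 FPKM in cKO skin at 100 days, and 23.5 and 16.8 FPKM at 300 days. In whole tissue, fewer cells of a type and less RNA per cell cannot be told apart.

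The members together made up 7.14% of all FPKM at 50 days and 7.94% at 700 days in control skin. They made up 4.63% in control and 5.65% in cKO skin at 100 days, and 4.89% and 4.92% at 300 days. Among these 4 groups the share was lowest in the 100-day controls and highest in the 100-day cKO, and at 300 days the genotypes were nearly equal. Without the 19 rows with a small RNA the shares were 3.33% in control and 3.83% in cKO skin at 100 days, and 3.28% and 3.10% at 300 days. The sum over the members was 27565 FPKM in control and 36858 FPKM in cKO skin at 100 days, and 33454 and 34050 FPKM at 300 days.

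**Figure D1:**
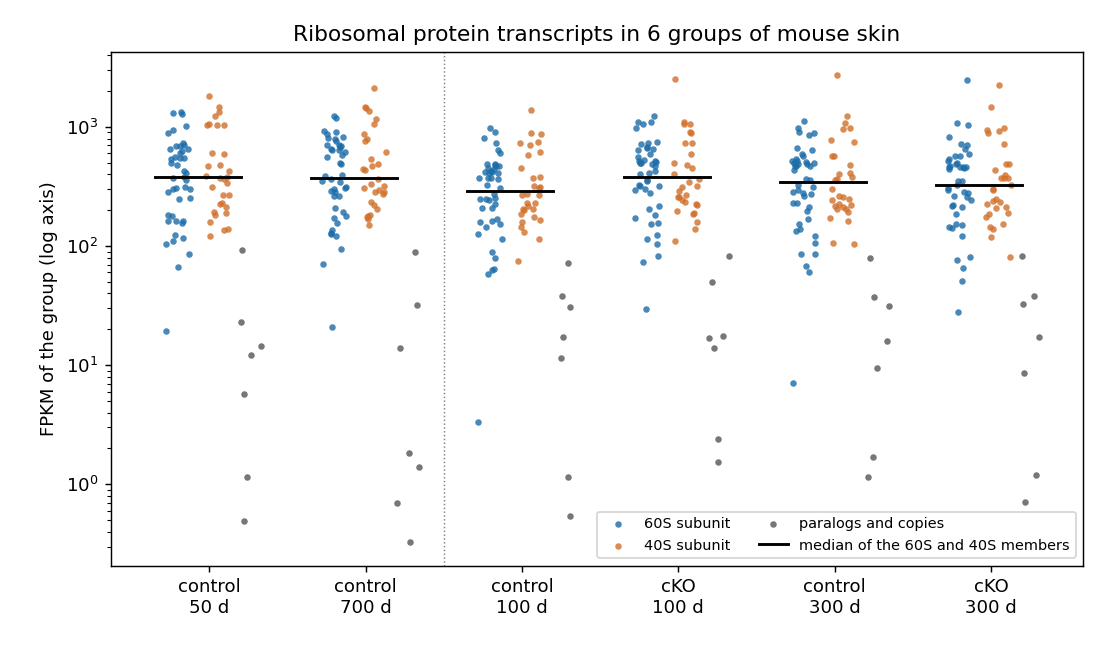
FPKM (log axis) of the 83 members that were compared in the 6 groups, with 1 point per member and group, split into main 60S genes, main 40S genes and paralogs or copies; the black line is the median over the 76 main genes, and the dotted line parts the title prefixes. The main genes lie mostly above 100 FPKM in every group, with medians from 291 FPKM in the 100-day controls to 382 FPKM in the 100-day cKO, and the paralogs lie mostly below them, though Rps27l and others exceed the lowest main gene, Rpl29.

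The median of the 76 main genes was 379 FPKM at 50 days and 375 FPKM at 700 days in control skin. It was 291 FPKM in control and 382 FPKM in cKO skin at 100 days, and 343 and 326 FPKM at 300 days. Of the 76, 68 stood above 100 FPKM in every group. By their mean over the 6 groups the highest members were Rps3 (2137 FPKM), Rpl5 (1165 FPKM), Rps2 (1145 FPKM), Rps27 (1141 FPKM) and Rpl41 (1090 FPKM). Rps3 forms part of the messenger RNA entry site of the 40S subunit, Rpl5 binds 5S ribosomal RNA and Rpl41 is the shortest protein of the ribosome. The first 3 of these rows carry a snoRNA, and the rows of Rps27 and Rpl41 do not. The lowest main gene was Rpl29, with a mean of 18.04 FPKM.

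The paralogs were lower than their parents in every group. Rpl22l1 stood between 23.2 and 49.7 FPKM, against 431 to 790 FPKM for Rpl22. Rps27l, a p53 target, stood between 71.4 and 92.1 FPKM, against 889 to 1467 FPKM for Rps27. Rpl7l1, which acts in ribosome assembly, stood between 13.9 and 17.3 FPKM, and Rpl7 between 607 and 823 FPKM. Rpl10l, Rpl6l, Rps3a2 and Rps12l1 had means of at most 0.105 FPKM and did not reach the mean of 1 FPKM asked of a gene to be compared. Rpl10l, Rpl6l and Rps3a2 were listed at 0 in at least 1 group and Rps12l1 in all. The members just above that minimum were Rpl39l (1.09 FPKM) and Rps3a3 (1.27 FPKM). The 83 others were compared, 49 of the 60S and 34 of the 40S subunit, among 12817 genes.

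Ratios are given as log2 of (FPKM + 1), which understates differences of low genes, and the counts below take members past 0.5 in either direction. Relative to all genes, the members' median lay farthest from 0 in cKO against control skin at 100 days among the 5 comparisons of 2 groups: it was 0.33 above that of all genes, 0.34 above with FPKM rescaled to a common median, and 0.32 above with FPKM rescaled to equal totals. Of the 83 compared members, 80 were above 0 in cKO against control skin, where 51.6% of all genes compared were above 0. Their median log2 ratio was 0.35 (1.28-fold), against 0.02 over all genes. By at least 0.5, 17 members were higher and 1 lower, where 11.8% of all genes were higher and 15.1% lower. Rescaled to equal totals the median was 0.22, against -0.10 over all genes, and 10 members were higher and 1 lower, where 8.71% of all genes were higher and 21.4% lower. By at least 1, 4 members were higher (2.18% of all genes), Rpl29, Rpl5, Rpl27a and Rpl39l, and 0 were lower (4.33% of all genes). The middle 50% of members lay between 0.25 and 0.44.

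Both subunits took part: the median was 0.38 over the 60S members, with 47 of 49 above 0, and 0.28 over the 40S members, with 33 of 34 above 0. Rpl3l and Rpl7l1 were among the 3 members not above 0. Among the 64 compared rows without a small RNA, 62 were above 0, with a median of 0.30, and 11 were higher by at least 0.5 (11.8% of all genes). All 57 members of at least 50 FPKM without a small RNA were above 0, with a median of 0.31. The 19 rows with a small RNA had a median of 0.38. Ribosomal protein transcripts are abundant and many are short. By their longest annotated transcript, however, many members exceed 1000 bases, such as Rps15a (5179 bases) and Rps24 (4059 bases). A set of genes below that length is thus not matched to the members, and the part of length was not tested. Over the 604 other genes compared with no transcript longer than 1000 bases the median was -0.12, and over the 421 other genes of at least 100 FPKM it was 0.02.

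**Figure D2:**
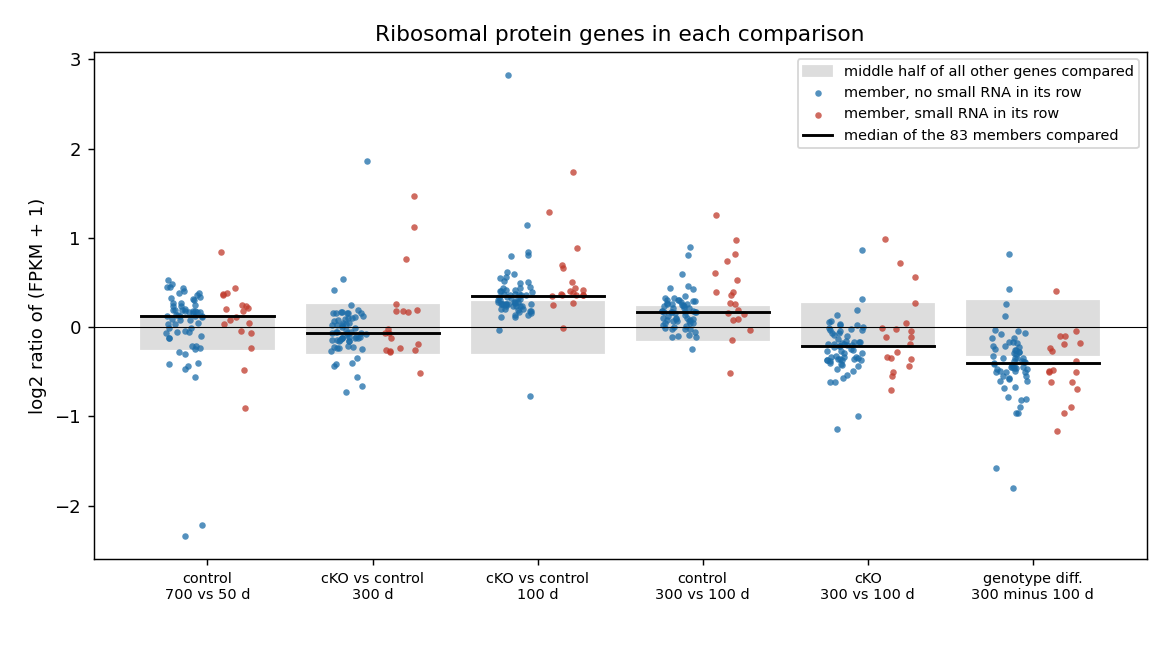
Log2 ratio of (FPKM + 1) of the 83 compared members in each comparison, with 1 point per member; red points are rows that also name a small RNA, and the grey band is the middle 50% of all other genes compared and the black line the members' median. In cKO against control skin at 100 days the points sit around 0.35 and in cKO skin at 300 against 100 days around -0.21, while a few members lie far from the rest, among them Rpl29 (2.82) and Rpl5 (1.73) at 100 days.

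At 300 days the members did not share a direction between the genotypes. The median log2 ratio of cKO against control skin was -0.06, against -0.01 over all genes, and 34 of 83 members were above 0 (48.6% of all genes). By at least 0.5, 5 members were higher and 4 lower, where 10.4% of all genes were higher and 14.8% lower. By at least 1, 3 were higher (1.9% of all genes) and 0 lower (5.2% of all genes). The median was -0.02 over the 60S members and -0.12 over the 40S members. The 5 higher members were Rpl29, Rpl5, Rpl27a, Rpl21 and Rpl28, all of the 60S subunit, and the rows of Rpl5, Rpl27a and Rpl21 carry snoRNAs. The 4 lower members included Rpl36, Rpl39l and Rpl11.

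The genotype difference at 300 days minus that at 100 days was above 0 in 5 of the 83 members (47.7% of all genes) and below 0 in 78. Its median was -0.40, against -0.02 over all genes. By at least 0.5, 1 member was higher (14.4% of all genes) and 27 were lower (15.8% of all genes), and by at least 1 the counts were 0 higher (3.9% of all genes) and 3 lower (4.81% of all genes), Rpl39l, Rpl36 and Rps3. With the 19 rows that name a small RNA left out the median was -0.40 over 64 members, of which 60 were below 0. Of the 83, 48 were above 0 at 100 days and below 0 at 300 days, 32 were above 0 at both ages, 2 were below 0 at 100 days and above 0 at 300 days, and 1 was below 0 at both. The split of all genes by these signs was not counted. The genotype difference could not be tested with 1 value per group.

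Age within each genotype shows where the 4 group values lay. In control skin at 300 against 100 days the median was 0.17 and 69 of 83 members were above 0 (54.5% of all genes), with 9 higher (9.89% of all genes) and 1 lower (5.27% of all genes). By at least 1, Rpl5 was higher (3.51% of all genes) and 0 members were lower (1.06% of all genes). In cKO skin at 300 against 100 days the median was -0.21 and 14 of 83 were above 0 (52.7% of all genes), with 4 higher (11.6% of all genes) and 9 lower (7.95% of all genes). By at least 1, 0 were higher (2.47% of all genes) and 1 was lower, Rpl36 (1.51% of all genes). Among these 4 groups, 51 of the 83 members were lowest in the 100-day controls, a group of 2 samples, and 58 were highest in the 100-day cKO. The matching counts over all genes were not taken. The first of these ratios shares its 100-day controls with the genotype ratio at 100 days, and the second shares the 100-day cKO with it. When FPKM was rescaled to equal totals the median in control skin was -0.024, while that of all genes was -0.15; in cKO skin 3 members were then higher and 14 lower (9.93% and 11.7% of all genes), and for the genotype difference 3 were higher and 16 lower (19.8% and 13.4% of all genes).

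In old against young control skin few members passed 0.5. At 700 against 50 days the median log2 ratio was 0.13, against -0.03 over all genes, and 56 of 83 members were above 0 (44.6% of all genes). By at least 0.5, 2 members were higher, Rplp2 and Rps16, where 2.94% of all genes were. The 4 lower members were Rpl3l, Rps4l, Rpl5 and Rpl41, where 11% of all genes were lower. By at least 1, 0 members were higher (0.593% of all genes), and Rpl3l and Rps4l were lower (3.25% of all genes). Rescaled to a common median 5 members were higher and 3 lower (4.07% and 9.74% of all genes). Rescaled to equal totals 8 were higher and 3 lower (5.76% and 10.6% of all genes), and the median was 0.24, against 0.06 over all genes. These totals include the row of Rpph1, at 39489 FPKM at 50 days and 17738 FPKM at 700 days. The mt-Rnr1 row stood at 13775 FPKM at 50 days and was listed at 0 at 700 days, which may be a missing value. The part of these rows in the shift was not tested.

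Several cell type markers differed between the same groups. Hair matrix and shaft genes (10 of 10 measured, none listed at 0) summed to 1193 FPKM in control and 3870 FPKM in cKO skin at 100 days, and to 1858 and 2219 FPKM at 300 days. Basal keratinocyte genes (8 of 8, none at 0) summed to 1654 and 2437 FPKM at 100 days and to 1820 and 2694 FPKM at 300 days, so these were higher in cKO skin at both ages. Adipocyte genes (7 of 7, none at 0) summed to 6254 FPKM in control and 1880 FPKM in cKO skin at 100 days, and to 4500 and 2248 FPKM at 300 days. Muscle genes (7 of 8, Ttn listed at 0 in a group) summed to 16560 and 10774 FPKM at 100 days and to 13135 and 15691 FPKM at 300 days. Simple and secretory epithelium genes (6 of 6, Wfdc2 listed at 0 in a group) summed to 393 and 5.97 FPKM at 100 days and to 108 and 4.35 FPKM at 300 days. Fibroblast genes (7 of 7, none at 0) summed to 2654 and 1542 FPKM at 100 days and to 2470 and 4116 FPKM at 300 days, and macrophage genes (7 of 7, none at 0) to 115 and 79.6 FPKM and to 233 and 93.4 FPKM. Genes of B, T and plasma cells (11 of 11, with 4 of them, Cd79b, Jchain and Ms4a1 included, listed at 0 in a group) stood apart in the 300-day controls, at 403 FPKM against 14.4 to 23.1 FPKM in the other 3 groups, and differentiated keratinocyte genes (8 of 8, Flg2 listed at 0 in a group) ranged from 2368 to 3611 FPKM over the 4 groups. Proliferation genes (8 of 8, none at 0) summed to 119 and 153 FPKM at 100 days and to 120 and 210 FPKM at 300 days. Their part in the members' levels was not tested.

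The stalk of the 60S subunit is built from Rplp0, which anchors it, and from Rplp1 and Rplp2. Rplp0 stood at 739 FPKM at 50 days and 804 FPKM at 700 days, at 489 FPKM in control and 650 FPKM in cKO skin at 100 days, and 535 and 566 FPKM at 300 days. Its log2 ratio was 0.41 at 100 days and 0.08 at 300 days. Rplp1 stood at 1018 and 1225 FPKM at 50 and 700 days, at 733 and 973 FPKM in control and cKO skin at 100 days, and 851 and 704 FPKM at 300 days. Both were thus higher in cKO skin at 100 days, and at 300 days Rplp1 was lower in the cKO. Rplp2 had the highest ratio of any member in old skin: it stood at 163 FPKM at 50 days and 292 FPKM at 700 days (log2 ratio 0.84), at 247 and 322 FPKM in control and cKO skin at 100 days, and 324 and 297 FPKM at 300 days. Its row also holds Snora52, and Rplp1 at 0.27 and Rplp0 at 0.12, whose rows hold no small RNA, had smaller ratios between the same groups.

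Rpl5 and Rpl11 bind 5S ribosomal RNA, and as a free complex they inhibit Mdm2, the ubiquitin ligase of p53. Rpl5 (chr5:107900502-107909005 on GRCm38, plus strand) stood at 1308 FPKM at 50 days and 699 FPKM at 700 days, at 373 FPKM in control and 1244 FPKM in cKO skin at 100 days, and 892 and 2473 FPKM at 300 days. It was 3.33-fold higher in the cKO at 100 days and 2.77-fold higher at 300 days. Rpl11, whose row names no small RNA, stood at 407 and 503 FPKM at 50 and 700 days, at 410 and 491 FPKM in control and cKO skin at 100 days, and 515 and 349 FPKM at 300 days. Its log2 ratio was 0.26 at 100 days and -0.56 at 300 days, so the 2 partners lay on opposite sides of 0 at 300 days. The value of Rpl5 includes Snord21, shown above, and the Fam69a gene overlaps it on the other strand.

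**Figure D3:**
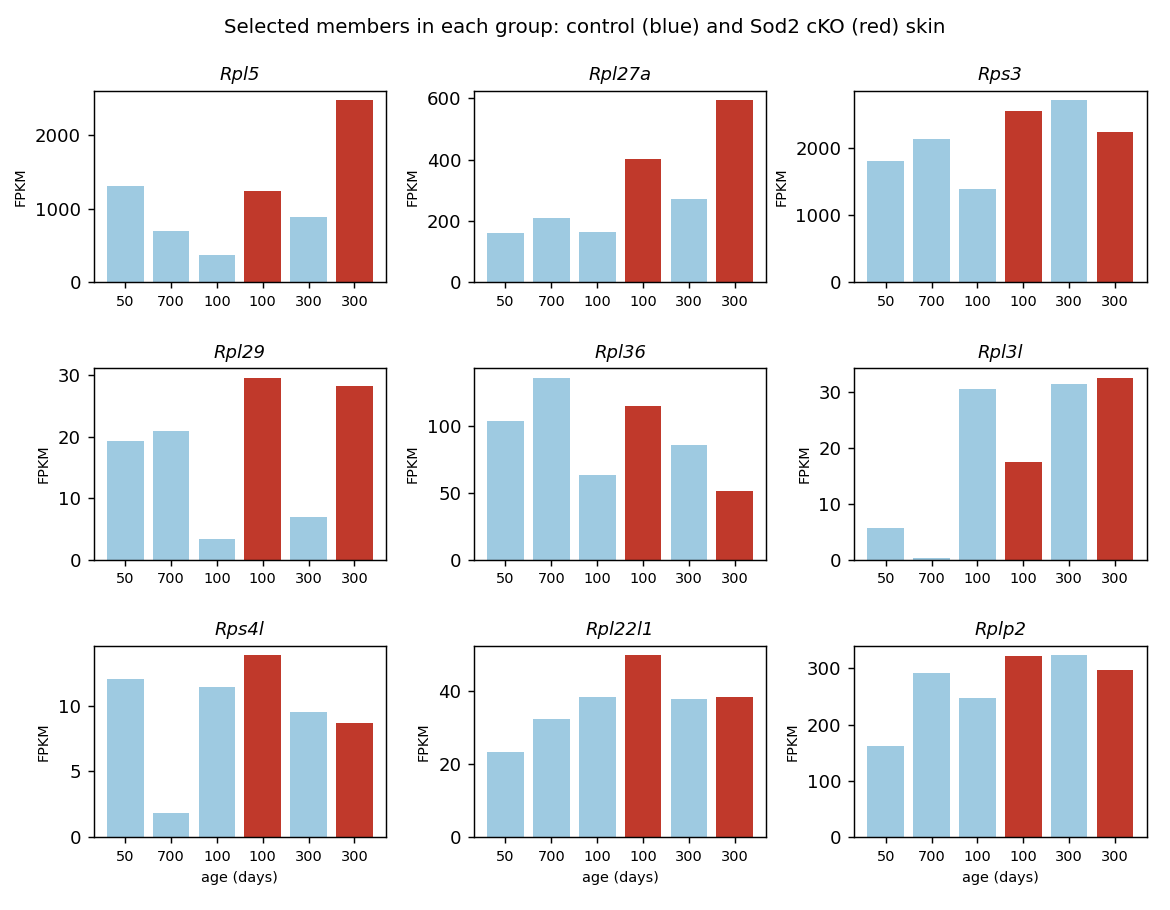
FPKM of 9 members in the 6 groups, with 1 bar per group (blue, control; red, cKO), each panel with its own axis from 0. Rpl5, Rpl27a and Rpl29 are higher in cKO than in control skin at both ages, Rpl36 is higher at 100 days and lower at 300 days, and Rpl3l and Rps4l are lowest in the 700-day controls.

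Rpl27a and Rpl29 were also higher in cKO skin at both ages. Rpl27a, a 60S protein (gene at chr7:109519147-109522367, plus strand), stood at 162 and 210 FPKM at 50 and 700 days, at 163 and 402 FPKM in control and cKO skin at 100 days, and 273 and 594 FPKM at 300 days. It was 2.46-fold higher in the cKO at 100 days and 2.18-fold at 300 days, in a row with the 2 snoRNAs shown above. Rpl29, a 60S protein whose loss slows growth in mice (gene at chr9:106429454-106431568, plus strand), stood at 19.3 and 20.9 FPKM at 50 and 700 days, at 3.32 and 29.6 FPKM in control and cKO skin at 100 days, and 7.02 and 28.2 FPKM at 300 days. The cKO value was 8.91-fold the control value at 100 days and 4.01-fold at 300 days. Both control values at these ages were thus far below the cKO values, which were close to each other. The Rpl29 row names no other symbol. Like most members, Rpl29 has processed copies in the genome, and the assignment of reads that fit several copies was not given in the sources used here.

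Rpl21 and Rpl28 were higher in cKO skin at 300 days, with less difference at 100 days. Rpl21 stood at 168 FPKM in control and 215 FPKM in cKO skin at 100 days, and 152 and 259 FPKM at 300 days. Rpl28, whose row names no small RNA, stood at 115 and 124 FPKM at 100 days, and 106 and 153 FPKM at 300 days. The log2 ratio of cKO against control skin was higher at 300 than at 100 days in 5 members. Rpl21, Rpl28 and Rpl3l (by 0.41, 0.42 and 0.82) and Rpl7l1 (by 0.13) were among them. For Rpl3l the ratio was -0.77 at 100 days and 0.05 at 300 days, so its genotypes were nearly equal at 300 days.

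Rpl36, a 60S protein, had opposite genotype differences at the 2 ages. Its gene (chr17:56613416-56614243, plus strand) stood at 104 and 136 FPKM at 50 and 700 days, at 63.2 and 114 FPKM in control and cKO skin at 100 days, and 85.3 and 51.1 FPKM at 300 days. The cKO was 1.81-fold higher at 100 days and 1.67-fold lower at 300 days. Rpl35a, a 60S protein whose human gene is mutated in Diamond-Blackfan anaemia, stood at 254 and 327 FPKM at 100 days, and 286 and 214 FPKM at 300 days. The row of Rpl36 names no other symbol.

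In the 40S subunit, Rps3 and Rps15a had the highest ratios between the genotypes at 100 days. Rps3 (gene at chr7:99477896-99483738, minus strand, with Snord15b in its row) stood at 1809 and 2135 FPKM at 50 and 700 days, at 1383 and 2548 FPKM in control and cKO skin at 100 days, and 2714 and 2236 FPKM at 300 days. Of the 4 values at 100 and 300 days, that of the 100-day controls was thus far below the others. Rps15a, in a row of its own, stood at 274 and 481 FPKM in control and cKO skin at 100 days, and 414 and 372 FPKM at 300 days. Its log2 ratio was 0.81 at 100 days and -0.15 at 300 days.

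The other members past 0.5 at 100 days had smaller ratios. Rpl32 (log2 ratio 0.70) stood at 416 FPKM in control and 675 FPKM in cKO skin at 100 days, and 599 and 497 FPKM at 300 days, in a row with Snora7a. Rpl31 (0.61) stood at 488 and 747 FPKM, and 574 and 657 FPKM at 300 days, and Rpl6 (0.59) at 210 and 317 FPKM, and 262 and 282 FPKM. Rpl26, which promotes translation of p53 messenger RNA, stood at 245 and 361 FPKM, and 294 and 309 FPKM at 300 days. Rpl12, Rpl15, Rps23 and Rps25 had log2 ratios between 0.50 and 0.55. All of these had their lowest value of the 4 in the 100-day controls, except Rpl12, which was lowest in the 300-day cKO (453 FPKM, against 466 FPKM in the 100-day controls).

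In cKO skin at 300 against 100 days the 9 lower members were Rpl36 (-1.15), Rpl39l (-0.998), Rpl3 (-0.71), Rps4l (-0.62), Rpl35a (-0.61), Rps26 (-0.57), Rpl12 (-0.55), Rpl18 (-0.53) and Rpl23a (-0.50). Rps26, which lines the messenger RNA exit channel, stood at 584 and 731 FPKM in control and cKO skin at 100 days, and 575 and 491 FPKM at 300 days. Rpl18 stood at 474 and 646 FPKM, and 496 and 446 FPKM at 300 days. In control skin at 300 against 100 days, Rpl3 was the lower member (-0.52) and Rpl27 (-0.12) and Rpl28 (-0.11) lay slightly below 0.

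In old control skin Rps16 stood at 230 FPKM at 50 days and 332 FPKM at 700 days (log2 ratio 0.53), and Rps24, in which human mutations cause Diamond-Blackfan anaemia, at 1061 and 1453 FPKM (0.45). Rpl41 was on the other side, at 1341 and 907 FPKM (-0.56), and Rpl38 stood at 1280 and 925 FPKM (-0.47). Rps26 stood at 1048 and 787 FPKM (-0.41). Members of either subunit thus lay on both sides of 0 with age.

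Rps6, the 40S protein phosphorylated by S6 kinases, stood at 308 FPKM in control and 399 FPKM in cKO skin at 100 days, and 367 and 399 FPKM at 300 days. Rpsa, which also serves as a laminin-binding protein, stood at 158 and 189 FPKM at 100 days, and 195 and 207 FPKM at 300 days. Both were a little higher in the cKO at both ages. Rps2 stood at 704 and 898 FPKM at 100 days, and 1242 and 1483 FPKM at 300 days, so its larger difference was between the ages (log2 ratio 0.82 in control and 0.72 in cKO skin), and its row holds Snora64.

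Of the paralogs, Rpl3l and Rps4l differed most between old and young control skin. Rpl3l replaces Rpl3 in the ribosomes of striated muscle. It stood at 5.72 FPKM at 50 days and 0.327 FPKM at 700 days, at 30.5 and 17.5 FPKM in control and cKO skin at 100 days, and 31.5 and 32.6 FPKM at 300 days. The muscle markers were 3061, 77.2, 16560, 10774, 13135 and 15691 FPKM in the same order of groups, so both were lowest at 700 days, and within the other 4 groups both were lowest in the 100-day cKO. Rpl3 stood at 301 and 349 FPKM at 50 and 700 days, at 329 and 427 FPKM at 100 days, and 229 and 261 FPKM at 300 days, and its row names a small RNA.

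Rps4l, an autosomal copy related to the X-linked Rps4x, is annotated as a transcribed processed pseudogene. It stood at 12.1 FPKM at 50 days and 1.82 FPKM at 700 days, a log2 ratio of -2.21. It stood at 11.4 and 13.9 FPKM in control and cKO skin at 100 days, and 9.52 and 8.67 FPKM at 300 days. Its gene (chr6:148354656-148355598, plus strand) overlaps Tmtc1 on the other strand. Rps4x stood at 227 FPKM at 50 days and 307 FPKM at 700 days (log2 ratio 0.43). Rpl22l1 stood at 23.2 and 32.1 FPKM at 50 and 700 days (log2 ratio 0.45), and at 38.1 and 49.7 FPKM in control and cKO skin at 100 days (0.37), while its parent Rpl22 was at 0.18 and 0.21 in the same comparisons. Rpl22l1 is known to be held down by Rpl22 protein.

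The X-linked members are of interest because Xist differed between the groups compared. They were Rpl10, Rpl36a, Rpl39 and Rps4x. At 100 days their log2 ratios of cKO against control skin were 0.27, 0.80, 0.20 and 0.24, and at 300 days 0.17, -0.01, 0.16 and -0.11. Rpl36a stood at 89.4 FPKM in control and 157 FPKM in cKO skin at 100 days and at 121 FPKM in both genotypes at 300 days. The median of the 4 was 0.25 at 100 days, below the 0.35 of all members, and 0.08 at 300 days, above their -0.06. At 700 against 50 days, where Xist also differed, it was 0.34 with 4 of 4 above 0, against 0.13 over all members.

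Levels relative to the other members within a group do not depend on how a group was scaled. For each of the 76 main genes the level was taken as log2 of its value over the median of the main genes in the same group. Over the 4 groups at 100 and 300 days 66 of the 76 spanned at most 0.5, and 3 spanned more than 1: Rpl29 (2.92), Rpl5 (2.56) and Rpl27a (1.70). Rps2 (0.95), Rpl36 (0.93), Rpl21 (0.84), Rpl3 (0.76) and Rps3 (0.74) followed. Between the 50- and 700-day controls 71 of 76 differed by at most 0.5. The 60S sum was 1.30 times the 40S sum in control and 1.32 times in cKO skin at 100 days, and 1.16 and 1.32 times at 300 days. Without the rows that name a small RNA the 300-day values were 1.18 and 1.16, so the gap between genotypes in this ratio lay in those rows.

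**Figure D4:**
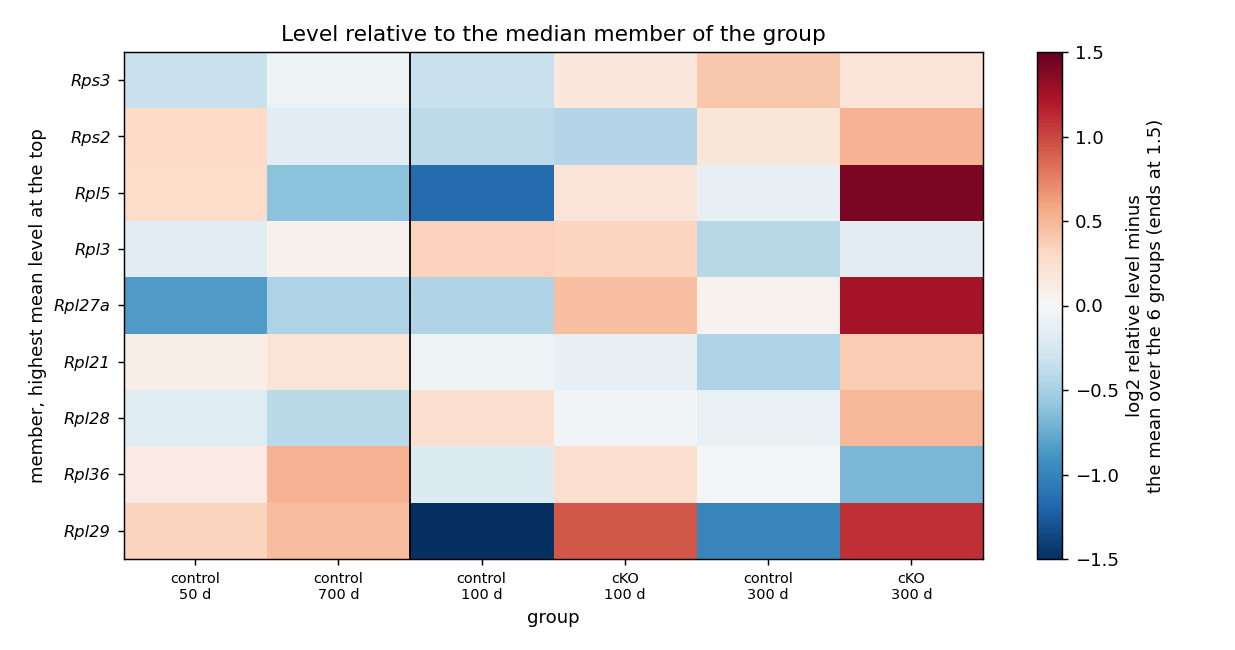
Level of the 9 main genes with the largest span over the groups at 100 and 300 days, relative to the median of the main genes in the same group (log2), minus the gene's own mean over the 6 groups, as colours (columns, groups; rows, genes). Rpl29, Rpl5 and Rpl27a are low in the 100-day controls and high in the 300-day cKO; the colour scale ends at 1.5 in both directions.

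The small RNAs themselves offered a comparison. The table holds 90 rows, with no member, in which every symbol starts with Snora, Snord or Scarna. Small RNAs under other names are not among them. These rows summed to 3962 FPKM in control and 7174 FPKM in cKO skin at 100 days, and to 7342 and 9236 FPKM at 300 days. Over the 53 compared rows the median log2 ratio in cKO against control skin was 1.10 at 100 days and 0.00 at 300 days. In control skin at 300 against 100 days it was 0.64. The order of the 4 sums was the same as the order of the Rpl5 values except between the 100-day cKO and the 300-day controls, where the sums were closest in size. Rps3, whose row also holds a snoRNA, had another order. Its 300-day cKO value (2236 FPKM) lay below those of the 100-day cKO (2548 FPKM) and the 300-day controls (2714 FPKM). Rpl5 was picked with its values known. The part of small RNAs in the values of the 19 rows was not tested.

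The proteins of the ribosome outside the naming rule lay near the members. Fau, fused to a ubiquitin-like protein, had a log2 ratio of 0.14 in cKO against control skin at 100 days, Rpl36al 0.33 and Rack1 0.37. Rack1 stood at 603 FPKM in control and 780 FPKM in cKO skin at 100 days, and 690 and 689 FPKM at 300 days, in a row with snoRNAs. At 300 days the log2 ratios of Fau, Rpl36al and Rack1 were 0.12, -0.15 and 0.00.

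Among other genes of translation, initiation factors came closest to the members at 100 days. Their median in cKO against control skin was 0.31 over 25 genes, 23 of them above 0 (51.6% of all genes). By at least 0.5, 4 were higher (11.8% of all genes) and none lower (15.1% of all genes). The higher ones were Eif4a2 (1.33), Eif4a1 (0.77), Eif4g2 (0.72) and Eif3i (0.57), and of these only the row of Eif3i names no other symbol. At 300 days the median was 0.08. Eif6, which keeps 60S subunits from joining too early, stood at 53.03 and 75.4 FPKM in control and cKO skin at 100 days, and 48.4 and 71.1 FPKM at 300 days. Eif4a1, the helicase of the cap-binding complex, stood at 6157 and 10523 FPKM at 100 days, in a row with 2 small RNAs.

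Elongation factors and other transcripts with a 5′ TOP motif had a median of 0.22 over 20 genes at 100 days, and of 0.03 at 300 days. At 100 days 3 were higher and 1 lower (11.8% and 15.1% of all genes). The higher ones were Snhg1, Gas5 and Npm1, and the rows of Snhg1 and Gas5 also name small RNAs. Eef2, which moves the ribosome along the message, stood at 319 FPKM in control and 395 FPKM in cKO skin at 100 days, and 334 and 339 FPKM at 300 days. Eef1a1, which delivers transfer RNA, stood at 2705 and 3320 FPKM at 100 days, and 3021 and 3078 FPKM at 300 days, in a row that also names Gm26377. Both were thus higher in the cKO at 100 days and almost equal at 300 days. Genes of ribosome biogenesis had a median of 0.21 over 39 genes at 100 days, and of 0.06 at 300 days. At 100 days 33 were above 0 (51.6% of all genes), 3 higher (11.8%) and 1 lower (15.1%). Npm1, a nucleolar chaperone in both lists, stood at 185 and 268 FPKM at 100 days, and 222 and 292 FPKM at 300 days.

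Mitochondrial ribosomal proteins, which serve the separate ribosome of that organelle, lay on the other side of 0. Their median was -0.10 over 75 genes at 100 days, with 2 higher and 11 lower (11.8% and 15.1% of all genes), and -0.13 at 300 days. Short transcripts of the respiratory chain had a median of -0.49 over 33 genes at 100 days, and of -0.12 at 300 days. At 100 days none were higher and 15 lower, beside the same shares of all genes. Cox7c, a subunit of cytochrome c oxidase, stood at 174 FPKM in control and 57.3 FPKM in cKO skin at 100 days, and 161 and 53.6 FPKM at 300 days. Its log2 ratios, -1.59 at 100 days and -1.57 at 300 days, were the lowest of this list. The 14 subunits of the 20S proteasome had medians of 0.05 and -0.07 at 100 and 300 days.

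**Figure D5:**
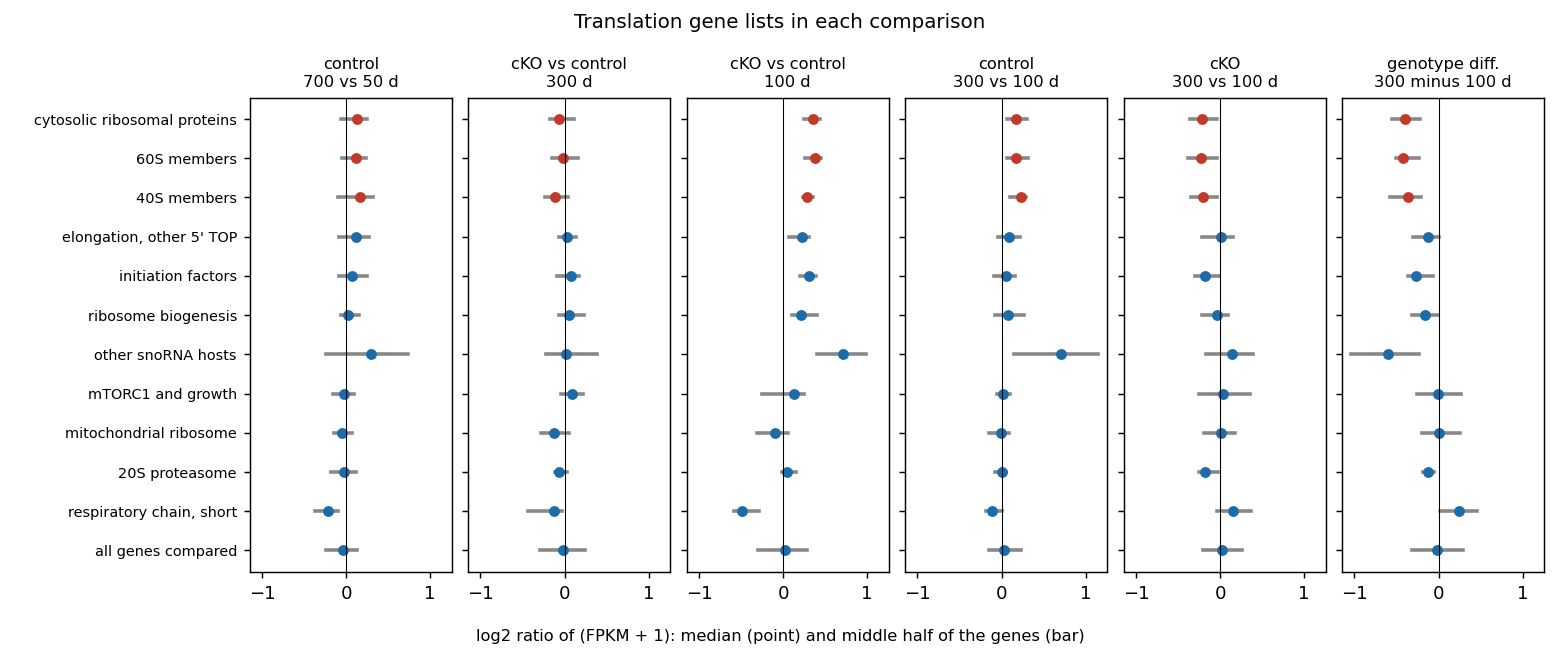
Median log2 ratio (points) and middle 50% (lines) of the cytosolic ribosomal protein genes and of other gene lists in each comparison. In cKO against control skin at 100 days the members (0.35), the initiation factors (0.31) and the elongation and 5′ TOP genes (0.22) lie above 0, and mitochondrial ribosomal proteins (-0.10) and respiratory chain transcripts (-0.49) lie below.

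Genes of growth, such as Myc, and of the control of translation by mTORC1 had medians of 0.12 at 100 days and 0.09 at 300 days over 25 genes. At 100 days 1 was higher and 3 lower (11.8% and 15.1% of all genes). Eif4ebp1, the repressor of cap-dependent translation that mTORC1 inactivates, stood at 32.2 and 22.0 FPKM in control and cKO skin at 100 days, and 32.5 and 17.1 FPKM at 300 days. Rps6kb1, the S6 kinase, stood at 27.6 and 37.99 FPKM at 100 days, and 26.5 and 23.5 FPKM at 300 days. Genes of the p53 and nucleolar stress response had a median of 0.24 over 12 genes at 100 days, and of 0.09 at 300 days. At 100 days 3 were higher and 3 lower, beside the same shares of all genes. This list includes Rps27l and Rpl22l1, which are also members. Cdkn1a, the cell cycle inhibitor induced by p53, stood at 37.2 and 66.0 FPKM at 100 days, and 41.2 and 51.5 FPKM at 300 days. Genes of ribosome quality control had a median of 0.26 over 11 genes at 100 days and of 0.24 at 300 days. snoRNA hosts without a ribosomal protein had medians of 0.71 and 0.02 over 12 genes at 100 and 300 days, and 7 of the 12 rows also name small RNAs.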

How the data were processed

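The authors deposited 1 table of FPKM with 1 column per group, and per the submitters' processing notes HISAT2, Cufflinks and Cuffdiff were used with mm10, with no versions given. The way Cuffdiff combined samples was not given in the sources used here. Per the labels' protocols, ribosomal RNA was removed with 1 of 2 kits, not assigned to samples, and strand-specific libraries were sequenced from 1 end for 75 cycles. Depth is unknown.

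The row with the highest mean was kept for each symbol. Log2 ratios of (FPKM + 1) were computed for 12817 genes whose mean was 1 FPKM or more, and counted at sizes of 0.5 and 1. The counting was tested on simulated data. Coordinates are 1-based, from GENCODE release M21 of GRCm38, in which all 87 members were found. Of these, 29 overlap another gene. Members were named by rule (the 5 highest and 5 lowest ratios and levels, paralogs with their parents, stalk and 5S-binding proteins, and the largest spans of relative level). Rpl36a and the members listed as past 0.5 outside this rule were named after their values were seen, as were the genes named from other lists where not the extremes. The members and gene lists were chosen with earlier results of these data known. Alternatives were 2 other pseudocounts, 2 filters, 2 rescalings and sets of rows left out. Results of some withheld items are not reported here. Python 3.11.15, pandas 2.3.3, numpy 2.4.6 and matplotlib 3.10.9 were used.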

Additional observations from a re-analysis of the deposited data

Results flagged for a closer look

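Rpl36 and Rpl39l were higher in cKO than in control skin at 100 days and lower at 300 days, by at least 0.5 on the log2 scale each time. For Rpl36 the log2 ratio was 0.85 at 100 days and -0.73 at 300 days, a difference of -1.57. For Rpl39l it was 1.15 and -0.66, a difference of -1.81. Rpl39l had a mean of only 1.09 FPKM, with 0.538 and 2.41 FPKM in control and cKO skin at 100 days and 1.69 and 0.706 FPKM at 300 days. With 1 value per group neither difference was tested.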

How the results depend on the processing

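No paired analysis was possible because the table holds 1 value per group, and for the same reason no sample could be left out. Rescaling to equal totals (TPM) moved the median of all genes from 0.02 to -0.10 in the genotype comparison at 100 days and from 0.03 to -0.15 in controls at 300 against 100 days. The members' median went to 0.22 at 100 days, to -0.024 in controls at 300 against 100 days (reversed from 0.17), to 0.24 in old against young skin and to -0.29 for the genotype difference. Relative to all genes it went from 0.33 to 0.32 at 100 days. Under this scaling 10 members were higher at 100 days (8.71% of all genes) and 8 in old skin (5.76%), 14 were lower in cKO skin at 300 against 100 days (11.7%), with 3 higher (9.93%), and 3 were higher (19.8%) and 16 lower (13.4%) in the genotype difference. Rescaling to a common median gave 5 higher in old skin (4.07%). Without rows of several symbols the higher members were 1 in old skin (2.83% of all genes), 2 at 300 days (10.4%) and 11 at 100 days (11.8%). At 300 against 100 days they were 3 in control (9.56%), with 0 lower (5.28%), and 1 in cKO skin (11.3%). Without rows that name a small RNA (chosen after seeing the data) the counts were the same. The shares of all genes were then 2.94%, 10.4%, 11.8%, 9.89% (5.27% lower) and 11.6%. Without paralogs 2 were lower in old skin (11%), 0 at 100 days (15.1%), and 0 were higher in the genotype difference (14.4%). Over the 57 members of at least 50 FPKM without a small RNA (also added later), 1 was higher and 1 lower in old skin (2.94% and 11% of all genes). The higher and lower counts were 1 and 2 at 300 days (10.4% and 14.8%), and 9 and 0 at 100 days (11.8% and 15.1%). At 300 against 100 days they were 1 and 0 in control (9.89% and 5.27%) and 0 and 4 in cKO skin (11.6% and 7.95%). For the genotype difference they were 0 and 17 (14.4% and 15.8%). As a share of protein-coding rows only (added later), the members made up 7.18% and 9.56% in control and cKO skin at 100 days and 8.28% and 8.68% at 300 days. The other 181 summary values stayed on their side or within 1.5 times, and the causes of the shifts were not tested.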
